A study of Homo sapiens with 9 samples.

Results

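Amino acid transporters of the plasma membrane were followed in cells labelled for more or less of the mitochondrial chaperone TRAP-1. The genes were chosen by name as SLC7A5, SLC3A2, SLC1A5, SLC1A4, SLC7A1, SLC38A1, SLC38A2 and SLC7A6, with the cystine transporter left out. The choice was made with earlier results of these data known. Of these 8 genes, 7 had values among the 22290 genes of the expression table, and SLC1A4 was not analysed here. RNA had been sequenced from 9 libraries of cells named as IMR-32, an established human neuroblastoma line. The parental (wild type) cells gave 3 libraries, as did the cells whose label is knockdown (KD) of TRAP-1 and those whose label is its overexpression (OE). The sources used here do not give the construct, its promoter or the number of clones behind the KD and OE cells, and no library of a control vector was analysed here, so vector, selection and clone cannot be told apart from the TRAP-1 label. Nothing says whether the libraries of a group came from separate cultures, so every p measures only the spread between these libraries, which may be technical.

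Cells take up amino acids through families of carriers that divide the work. Exchangers such as SLC7A5 (LAT1) let a large neutral amino acid such as leucine in while another, often glutamine, goes out, whereas sodium-coupled carriers such as SLC38A1 and SLC38A2 load the cell with glutamine, alanine and other small neutral amino acids. Leucine and arginine that enter in this way are read by sensor proteins upstream of the growth kinase mTORC1, and a shortage of amino acids is read by the kinase GCN2, which acts through the transcription factor ATF4. Many tumours carry high amounts of SLC7A5 and of the glutamine carrier SLC1A5.

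The values are regularized log2 values (rlog), in which library size is already accounted for and each gene is drawn toward its own mean, so differences between groups are likely smaller than those of unshrunken values and no linear fold is given for them. The number of reads behind each value cannot be read from rlog values, and the methods of the study give only a nominal depth for all libraries. Library medians lay between 7.0301 and 7.0559. Over all genes, pairs of libraries from the same group differed by a root mean square of 0.0582 to 0.0630, and pairs from different groups by 0.137 to 0.255.

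TRAP1 itself was examined first, since it checks the labels. TRAP1 (ENSG00000126602, GRCh38 chromosome 16 from 3651639 to 3717553) had rlog values of 10.67, 10.66 and 10.65 in the parental libraries, 10.79, 10.79 and 10.83 in the libraries labelled KD, and 10.67, 10.63 and 10.74 in the libraries labelled OE. All libraries labelled KD thus lay above all parental libraries, and those labelled OE spread across them. Other annotated genes overlap 28.5% of its exonic bases, which limits this check of the labels. The difference from parental was 0.14 in KD (standard error, SE, 0.025; adjusted p = 1.76e-05 from limma) and 0.018 in OE (95% confidence interval -0.033 to 0.069, adjusted p = 0.643 from limma). TRAP1 RNA was therefore not lower in KD nor detectably higher in OE, and wherever KD and OE are named, only the label of a library is meant. The OE difference was -0.012 without OE replicate 3 and -3.9e-05 with library medians made equal. With the values of neighbouring genes subtracted it was 0.070 and was called, at an adjusted p of 0.0199 from limma where the rest of its alternatives gave 0.277 to 0.999.

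The label neuroblastoma was compared with marker genes. Among adrenergic neuroblastoma markers, MYCN, PHOX2A and TH had a mean rlog under 3. IMR-32 is known for amplified MYCN, whereas MYCN lay between 2.46 and 2.61 in the 9 libraries, near the lower end of the table, whose lowest value was 0.138. GATA2, ISL1 and ALK were present at mean rlog values of 9.20, 9.30 and 8.60. All 10 mesenchymal markers had values and averaged 5 or more, led by VIM at 15.89. DBH, DDC and STMN2 were not analysed here. Of 12 epithelial markers 9 had values, of which 4 averaged 5 or more (KRT18 at 12.04, CLDN4 at 9.89, KRT8 at 8.96 and ESRP2 at 5.29) and 4 were under 3 (EPCAM, ESRP1, ELF3 and OVOL1). Of 4 endothelial markers PECAM1 (9.5), KDR (7.45) and VWF (5.05) were present and CDH5 was at 0.62, and PTPRC, the immune marker with values, was at 2.65. The marker values go against the label in part, and the cells are called by the names of their groups.

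SLC7A5 and SLC3A2 together form a transporter in which SLC7A5 is the light chain that moves the amino acid and SLC3A2 (CD98, 4F2hc) is the heavy chain that brings it to the membrane. SLC7A5 (ENSG00000103257, chromosome 16 from 87830023 to 87869507, minus strand) had rlog values of 14.63, 14.61 and 14.63 in the parental libraries, 13.75, 13.79 and 13.79 in KD, and 14.30, 14.33 and 14.36 in OE. The parental libraries were the highest, those labelled OE intermediate and those labelled KD the lowest, and no library of a group reached another group. The difference from parental was -0.84 in KD (SE 0.014, adjusted p = 1.41e-30 from limma) and -0.29 in OE (SE 0.014, adjusted p = 1.55e-17 from limma). OE was above KD by 0.55 (adjusted p = 1.68e-25 from limma).

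SLC3A2 (ENSG00000168003, chromosome 11 from 62856004 to 62888880, plus strand) had values of 13.49, 13.47 and 13.48 in the parental libraries, 12.89, 12.92 and 12.92 in KD, and 13.22, 13.23 and 13.27 in OE. The order of the groups was that of its partner SLC7A5, again with no overlap. SLC3A2 differed from parental by -0.57 in KD (SE 0.015, adjusted p = 2.60e-25 from limma) and by -0.24 in OE (SE 0.015, adjusted p = 1.14e-14 from limma). OE was above KD by 0.33 (adjusted p = 7.59e-19 from limma). In bulk RNA a lower level per cell and a smaller share of cells with the transcript cannot be told apart.

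**Figure D1:**
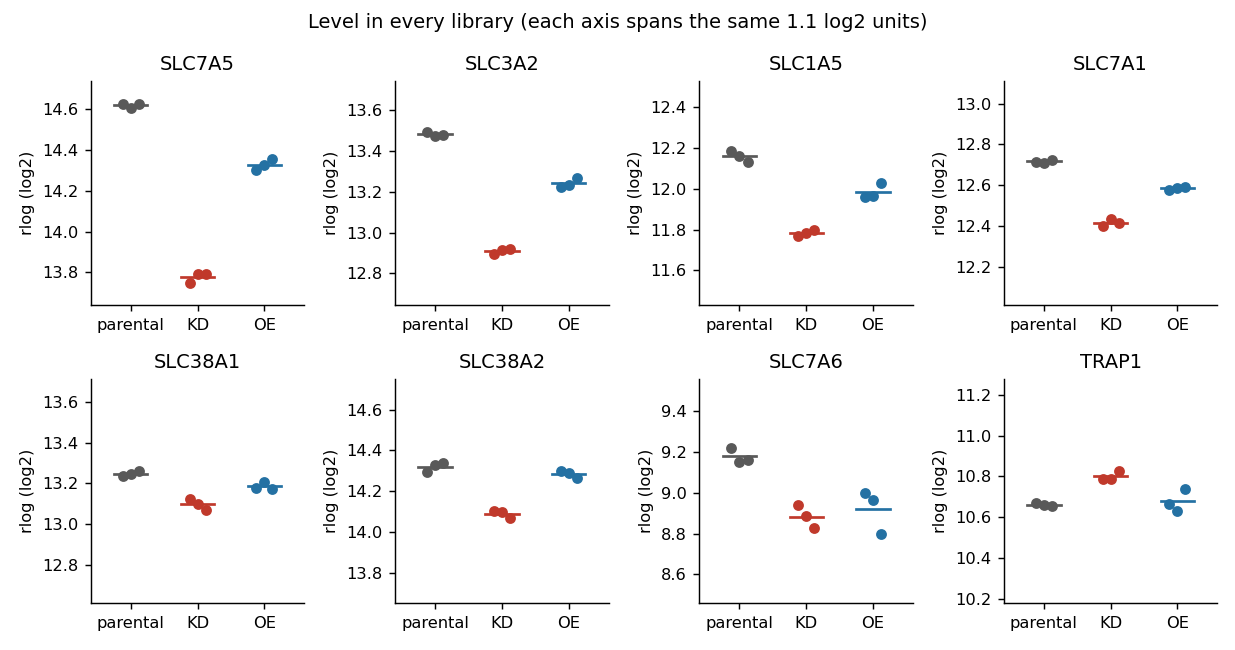
The rlog value (log2, vertical axes, each spanning the same number of units) of 7 amino acid transporters and TRAP1 in every library, by group, with dots for libraries and lines for group means. SLC7A5 falls from about 14.62 in parental to 13.78 in KD and 14.33 in OE, whereas TRAP1 is highest in the libraries labelled KD.

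The promoter of SLC7A5 is shown because SLC7A5 had the largest difference among the transporters. Promoter sequences of all 7 genes were found in RefSeq (GRCh38.p14), with 12 start sites, and the 250 bases before each start were searched on both strands for TGATGNAA (a form of the amino acid response element bound by ATF4), CACGTG (the E-box bound by MYC and related factors) and ACGTG (the core of the hypoxia response element, which lies within every CACGTG). Of 35116 promoters of the same length, 3.14% held TGATGNAA, 6.34% held CACGTG and 18.5% held ACGTG. The bases before the SLC7A5 start, chr16:87869508-87869757 on the minus strand, written in the direction of transcription with the E-box in capitals, are these.
SLC7A5: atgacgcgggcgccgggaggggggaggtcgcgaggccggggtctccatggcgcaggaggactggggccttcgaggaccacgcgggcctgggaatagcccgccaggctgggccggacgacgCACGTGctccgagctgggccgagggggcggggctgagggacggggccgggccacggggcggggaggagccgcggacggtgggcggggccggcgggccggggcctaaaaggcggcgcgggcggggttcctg
The E-box began 130 bases before the start, and no TGATGNAA was present in this window. A match of letters is a description of the sequence and shows no binding.

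The heavy chain and the light chain did not change by the same amount. SLC7A5 minus SLC3A2 within a library was 1.13, 1.13 and 1.15 in the parental libraries, 0.86, 0.88 and 0.88 in KD, and 1.08, 1.09 and 1.09 in OE. Every library labelled KD or OE lay below every parental library. The mean was 1.14 ± 0.011 (SD, n = 3) in parental, 0.87 ± 0.011 (SD, n = 3) in KD and 1.09 ± 0.0067 (SD, n = 3) in OE. The change from parental was -0.27 in KD and -0.050 in OE, each with p = 0.1 in a two-sided exact permutation test, which is the smallest p that 3 against 3 libraries allow.

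**Figure D2:**
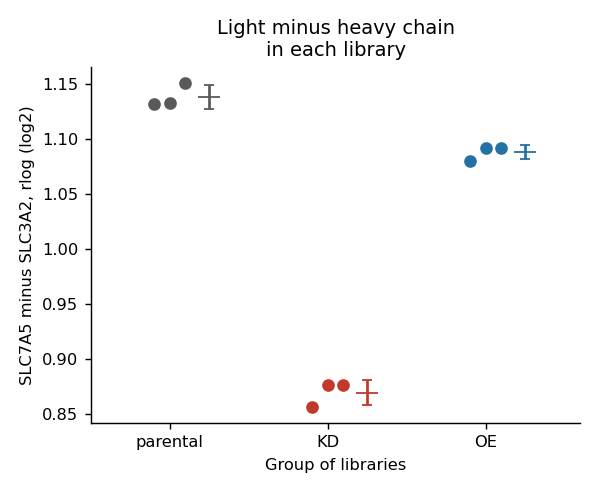
The rlog value of SLC7A5 minus that of SLC3A2 (log2, vertical axis) in each library by group, with the mean ± SD of 3 libraries beside the dots. The libraries labelled KD lie near 0.87, below those labelled OE near 1.09 and parental near 1.14.

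SLC1A5 (ASCT2) exchanges glutamine and other neutral amino acids together with sodium. SLC1A5 (ENSG00000105281, chromosome 19 from 46774883 to 46788594, minus strand) had values of 12.19, 12.16 and 12.13 in the parental libraries, 11.77, 11.79 and 11.80 in KD, and 11.96, 11.96 and 12.03 in OE. Both labelled groups lay below parental without overlap, and KD lay below OE. The difference from parental was -0.38 in KD (SE 0.020, adjusted p = 6.20e-17 from limma) and -0.18 in OE (SE 0.020, adjusted p = 1.23e-08 from limma). Other annotated genes overlap 23.8% of its exonic bases, and the library kit does not mark strand, so reads of genes on the opposite strand cannot be told apart there. Its start sites are shown because it was the member with both motifs, each near a different start. The E-box, 50 bases before the start at 46787293, lies at chr19:46787328-46787353 and the TGATGNAA match, 97 bases before the start at 46784814, lies at chr19:46784894-46784921, both given on the minus strand with the motif in capitals.
SLC1A5 E-box: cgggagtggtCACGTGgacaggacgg
SLC1A5 TGATGNAA: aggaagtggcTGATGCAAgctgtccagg
These were the CACGTG and TGATGNAA matches of SLC1A5, and the window of its remaining start, at 46788594, held neither.

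SLC7A1 (CAT1) carries the cationic amino acids arginine, lysine and ornithine. SLC7A1 (ENSG00000139514, chromosome 13 from 29509414 to 29595688, minus strand) had values of 12.72, 12.71 and 12.72 in the parental libraries, 12.40, 12.43 and 12.41 in KD, and 12.58, 12.58 and 12.59 in OE. The groups were again ordered parental, OE and KD with no overlap. The difference from parental was -0.30 in KD (SE 0.016, adjusted p = 3.94e-17 from limma) and -0.13 in OE (SE 0.016, adjusted p = 3.59e-08 from limma). No TGATGNAA, CACGTG or ACGTG was present in its window, nor in those of SLC3A2 and SLC38A2. Bases after the start were not searched for any gene.

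The sodium-coupled carriers SLC38A1 (SNAT1) and SLC38A2 (SNAT2) are neighbours on chromosome 12, with 88170 bases between them, both on the minus strand. SLC38A1 (ENSG00000111371, from 46183063 to 46270017) had values of 13.23, 13.25 and 13.26 in the parental libraries, 13.12, 13.10 and 13.07 in KD, and 13.18, 13.21 and 13.17 in OE. SLC38A2 (ENSG00000134294, from 46358188 to 46372773) had values of 14.29, 14.33 and 14.34 in the parental libraries, 14.10, 14.10 and 14.07 in KD, and 14.30, 14.29 and 14.27 in OE. In both genes KD lay below the other groups, whereas OE overlapped parental in SLC38A2 and lay just below it in SLC38A1. In KD the difference from parental was -0.15 for SLC38A1 (adjusted p = 5.09e-10 from limma) and -0.23 for SLC38A2 (adjusted p = 3.02e-16 from limma). In OE it was -0.061 for SLC38A1 (adjusted p = 0.00212 from limma) and -0.033 for SLC38A2 (95% confidence interval -0.060 to -0.0066, adjusted p = 0.0466 from limma). Neither OE call held under quantile normalization, where SLC38A1 differed by -0.035 (adjusted p = 0.0594 from limma) and SLC38A2 by 0.018 in the opposite direction (adjusted p = 0.318 from limma). The SLC38A2 call was lost in 9 further alternatives, among them the fit without a variance trend (adjusted p = 0.244 from limma). It was lost without parental replicate 2 or 3, KD replicate 2, or OE replicate 2 or 3, with differences of -0.029, -0.025, -0.033, -0.036 and -0.024, and the adjusted p over all its alternatives was 0.0016 to 0.318.

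SLC7A6 (y+LAT2) is another light chain of SLC3A2, which exchanges cationic for neutral amino acids. SLC7A6 (ENSG00000103064, chromosome 16 from 68264516 to 68301823, plus strand) had values of 9.22, 9.15 and 9.16 in the parental libraries, 8.94, 8.89 and 8.83 in KD, and 9.0, 8.97 and 8.80 in OE. KD and OE overlapped each other and both lay below parental. The difference from parental was -0.30 in KD (SE 0.040, adjusted p = 1.61e-07 from limma) and -0.26 in OE (SE 0.040, adjusted p = 4.03e-06 from limma). OE and KD differed by 0.037 (95% confidence interval -0.045 to 0.12, adjusted p = 0.494 from limma), and this was 0.098 and called without OE replicate 3 (adjusted p = 0.033 from limma) and -0.0013 without OE replicate 1, over a range of adjusted p from 0.033 to 0.985. Other annotated genes overlap 55.6% of its exonic bases, so its values are uncertain.

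Counted together, 7 of 7 transporters were called lower in KD than in parental, where 26.9% of all genes were called lower and 26.9% higher. All 7 also lay below parental in every library labelled KD, an arrangement found in 29.6% of all genes. In OE 7 of 7 were called lower (SLC38A2 turning to 0.018 under quantile normalization), against 18.0% of all genes lower and 16.9% higher. This near balance over all genes in OE depended on scaling. With library medians made equal, more of all genes were called lower and fewer higher. With the neighbourhood median removed, more of all genes were called higher than lower. In OE 6 of 7 transporters lay below parental in every library, against 22.0% of all genes. Because the transporters are abundant, genes averaging 8 or more on the rlog scale give a closer background, and of these 39.4% were called lower and 36.4% higher in KD, and 31.5% lower and 25.2% higher in OE. A fall of more than 0.5 in KD was found for SLC7A5 and SLC3A2, and for 2.27% of all genes. That share, and those for lying below parental in every library, were not taken among genes averaging 8 or more. They may differ there, since shrinkage is stronger for genes with few reads. Between OE and KD directly, 6 of 7 were called higher in OE, where 23.5% of all genes were higher and 23.8% lower, and SLC7A6 was the exception. The median difference of the 7 genes was -0.30 in KD and -0.18 in OE, and that of all genes was -0.00051 and 0.00039. KD and OE share the parental libraries, so these counts are not independent of each other. The transporters were also chosen with earlier results of these data known. Their counts and medians beside all genes are therefore a description and not a test of the family.

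**Figure D3:**
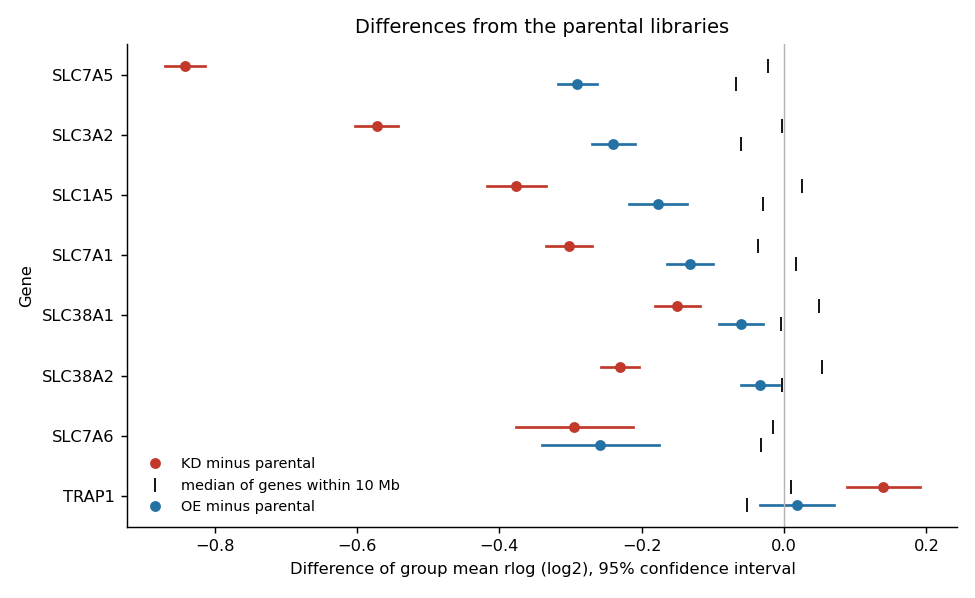
Difference of group mean rlog from parental (log2, horizontal axis) for each transporter and TRAP1 in KD and OE, with bars for the 95% confidence interval and short vertical marks for the median difference of genes within 10 Mb. SLC7A5 stands at -0.84 in KD and -0.29 in OE, whereas SLC38A2 in OE, at -0.033, lies next to 0.

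Genes near the transporters were examined because whole stretches of a chromosome can shift together between cell lines. The median difference of genes within 10 Mb that averaged 8 or more was -0.023 in KD for the 61 neighbours of SLC7A5, and -0.0035 for the 171 of SLC3A2. It was 0.053 for the 113 neighbours of SLC38A2 and 0.049 for the 109 of SLC38A1, opposite in sign to the genes themselves. In OE the neighbours of SLC7A5 and SLC3A2 had medians of -0.068 and -0.060, and with these removed the differences were -0.22 and -0.18. In KD the difference of each of the 7 transporters exceeded the median of its neighbours in size.

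Levels were compared between genes only per length, as the rlog value taken back from the log2 scale and divided by the kilobases of annotated exon. In the parental libraries SLC7A5 had the highest level per kilobase with 5286 ± 45 (SD, n = 3), followed by SLC38A2 with 3140 ± 47 (SD, n = 3) and SLC3A2 with 1790 ± 14 (SD, n = 3). SLC1A5 stood at 1374 ± 27 (SD, n = 3), SLC38A1 at 970.7 ± 8.2 (SD, n = 3), SLC7A1 at 875.1 ± 5.0 (SD, n = 3) and SLC7A6 at 76.4 ± 2.0 (SD, n = 3). No neighbours in this order overlapped between their libraries. In KD the order was the same, but SLC7A5 (2950 ± 49, SD, n = 3) and SLC38A2 (2676 ± 34, SD, n = 3) stood closer together, and in OE SLC7A5 stood at 4323 ± 84 (SD, n = 3) above SLC38A2 at 3068 ± 37 (SD, n = 3). Annotated exon length covers all transcripts of a gene and can exceed that of the transcript in use, which limits the comparison between genes but not within a gene. Taking rlog values back from the log2 scale does not undo their shrinkage. Differences of these levels and of their sums between groups are therefore likely too small as well.

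SLC3A2 is shared by several light chains, and 5 of them had values. This list was chosen after the values were seen and is given without a test. SLC7A5 made up 95.9% ± 0.086 (SD, n = 3) of their summed level per kilobase in parental, 92.6% ± 0.23 (SD, n = 3) in KD and 95.2% ± 0.26 (SD, n = 3) in OE. SLC7A11, the cystine and glutamate exchanger, had 2.54% ± 0.083 (SD, n = 3) in parental, 5.05% ± 0.13 (SD, n = 3) in KD and 3.11% ± 0.12 (SD, n = 3) in OE. SLC7A6 had 1.39% ± 0.031, 1.96% ± 0.10 and 1.41% ± 0.12 (SD, n = 3) of the sum in parental, KD and OE. SLC7A7 and SLC7A8 each made up at most 0.263% of the sum in every library, but both were called higher in KD. SLC7A8 differed by 0.62 (adjusted p = 1.73e-14 from limma) and SLC7A7 by 0.21 (adjusted p = 0.00039 from limma). Their mean rlog values were low, at 4.35 and 5.35, neither was called in OE, and no alternatives were run for them. SLC7A11 itself was higher in KD by 0.20 on the rlog scale (adjusted p = 2.10e-07 from limma), or by 0.11 with the neighbourhood median removed (adjusted p = 0.000841, within 7.26e-08 to 0.000841 over its alternatives), and its level per kilobase was 140.0 ± 5.8 (SD, n = 3) in parental and 160.8 ± 3.4 (SD, n = 3) in KD. In OE its difference of 0.014 was not called (adjusted p = 0.757 from limma, 0.344 to 0.981 over its alternatives) and its direction was not kept over them. The sum itself fell, from 5513 ± 52 (SD, n = 3) in parental to 3185 ± 47 (SD, n = 3) in KD and 4539 ± 76 (SD, n = 3) in OE.

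**Figure D4:**
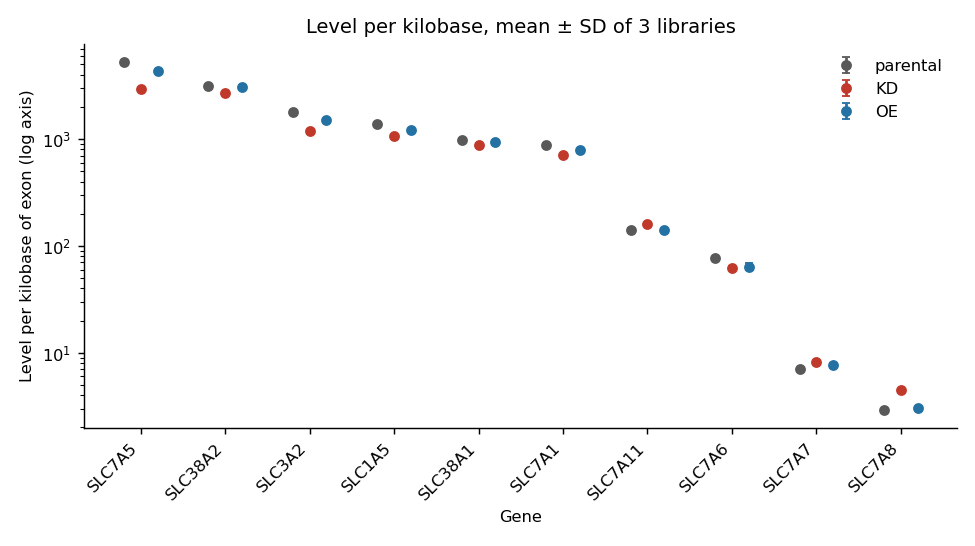
Level per kilobase of exon (vertical log axis) for 7 amino acid transporters and for the other SLC3A2 light chains with values, by group, as mean ± SD of 3 libraries. SLC7A5 is highest in every group, whereas SLC7A7 and SLC7A8 lie more than 100 times lower.

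Genes with the most similar pattern over the 9 libraries were sought for the 3 transporters with the widest range of group means, among 9781 genes that had a symbol and averaged 8 or more. For SLC7A5, PMEPA1, GLI2 and COL7A1 were nearest, with root mean square differences of 0.029, 0.035 and 0.038 between values centred on each gene. PMEPA1 differed from parental by -0.79 in KD and -0.29 in OE. For SLC3A2, TUBB4B, BICD2 and ECE1 were nearest with 0.016, 0.019 and 0.021, and for SLC1A5, ADCK5, FTSJ1 and ADGRG1 with 0.013, 0.018 and 0.019. The likeness is a description over libraries that share their groups.

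Other amino acid transporters of the cell surface were called in both directions, at shares not far from those of all genes. Of 31 such genes 18 had values, of which 6 were called higher and 7 lower in KD (median -0.018), and 3 higher and 2 lower in OE (median 0.011). Of all genes, 26.9% were called in each direction in KD, and 16.9% higher and 18.0% lower in OE. SLC43A2, a carrier of large neutral amino acids (LAT4), had values of 8.53, 8.49 and 8.48 in parental, 7.53, 7.45 and 7.37 in KD, and 8.20, 8.20 and 8.25 in OE. It fell by 1.05 in KD (adjusted p = 9.57e-21 from limma), and its difference in OE was -0.29 (adjusted p = 5.94e-07 from limma). SLC6A6, the taurine transporter, changed in opposite directions, by -0.41 in KD (adjusted p = 1.63e-19 from limma) and 0.19 in OE (adjusted p = 1.44e-10 from limma). The median of its neighbours in KD was -0.32, and with it removed the KD difference was -0.093 (adjusted p = 1.21e-05 from limma, within 1.78e-21 to 1.21e-05 over its alternatives). SLC7A2, a relative of SLC7A1 for cationic amino acids, was higher by 0.42 in KD (adjusted p = 1.26e-13 from limma) and 0.19 in OE (adjusted p = 6.37e-06 from limma). SLC7A1 was thus lower where SLC7A2 was higher.

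In lysosomes, carriers return amino acids to the cytosol. Of 9 lysosomal transporters 8 had values, of which 5 were called lower and 1 higher in KD (median -0.12), against 26.9% of all genes in each direction and 39.4% lower among genes averaging 8 or more. In OE 3 were called lower with limma and 0 higher, with 0 higher also at an unadjusted p under 0.05 (median -0.079), against 18.0% of all genes lower and 31.5% of those averaging 8 or more, as 7 of these 8 do. With library medians made equal 5 were lower in OE, but the share of all genes called lower then also rose above 18.0%. SLC36A1, a proton-coupled carrier of small amino acids that also counts among those of the cell surface, had values of 10.70, 10.68 and 10.75 in parental, 10.29, 10.28 and 10.24 in KD, and 10.40, 10.38 and 10.39 in OE. CTNS, which exports cystine, was lower by -0.35 in KD (adjusted p = 1.18e-12 from limma) and -0.24 in OE (adjusted p = 1.11e-08 from limma). Both genes lay below parental in all libraries of both labelled groups.

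Genes that carry the amino acid signal to mTORC1 were called in each direction in KD about as often as all genes. Of 39 listed 32 had values, of which 10 were called higher and 10 lower in KD (median 0.024), and 5 higher and 10 lower in OE (median -0.0087), beside 26.9% of all genes in each direction in KD and 16.9% higher and 18.0% lower in OE. Of these 32 genes 29 average 8 or more. Among all such genes 39.4% were lower and 36.4% higher in KD, and 31.5% lower and 25.2% higher in OE. With library medians made equal 2 were higher in OE, but the share of all genes called higher then also fell below 16.9%. The leucine sensor SESN2 fell by 0.51 in KD (adjusted p = 1.42e-14 from limma), and its difference was -0.30 in OE (adjusted p = 1.09e-08 from limma). RRAGD, a Rag GTPase that recruits mTORC1 to the lysosome, was higher by 0.37 in KD (adjusted p = 1.01e-11 from limma) and 0.23 in OE (adjusted p = 6.75e-07 from limma). SEC13, of the GATOR complexes, differed by -0.38 in KD (adjusted p = 4.76e-17 from limma) and was 0.42 higher in OE than in KD (adjusted p = 4.93e-18 from limma). The neighbours of SEC13 had a median of -0.32 in KD, and with it removed these values were -0.055 (adjusted p = 0.0208 from limma, the highest over its alternatives) and 0.085 (adjusted p = 0.000785 from limma, likewise the highest).

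Of 22 genes of the amino acid response (GCN2 and ATF4) 19 had values, of which 12 were called lower and 4 higher in KD (median -0.12), beside 26.9% of all genes in each direction. In OE 9 were called lower and 4 higher (median -0.020), beside 18.0% and 16.9% of all genes. Between OE and KD 12 were higher in OE and 2 lower (1 without KD replicate 3), beside 23.5% and 23.8% of all genes. Of the 19 genes 16 average 8 or more, where 39.4% of all such genes were lower in KD and 31.5% in OE. ATF3, a transcription factor induced by stress, had values of 9.31, 9.31 and 9.21 in parental, 8.14, 8.12 and 8.20 in KD, and 8.86, 8.81 and 8.84 in OE. CHAC1, which degrades glutathione, fell by 0.82 in KD (adjusted p = 1.77e-17 from limma), and PSAT1, of serine synthesis, fell by 0.71 in KD (adjusted p = 1.89e-26 from limma). The neighbours of PSAT1 had a median of -0.38 in KD, and with it removed its difference was -0.33 (adjusted p = 7.59e-18 from limma, at most 1.36e-09 over its alternatives). The groups of ATF3 did not overlap. In OE VLDLR and DDIT4 were higher by 0.61 (adjusted p = 2.85e-14 from limma) and 0.32 (adjusted p = 1.58e-13 from limma). Both were also called higher in KD, by 0.23 (adjusted p = 4.58e-06 from limma) and 0.13 (adjusted p = 4.01e-06 from limma). No alternatives were run for these KD differences, and the neighbours of VLDLR had a median of 0.14 in KD. ATF4 itself, named after its values were seen, had values of 14.11, 14.12 and 14.08 in parental, 13.98, 13.98 and 14.00 in KD, and 14.06, 14.03 and 14.09 in OE. It differed by -0.12 in KD (adjusted p = 8.49e-09 from limma) and by -0.043 in OE (adjusted p = 0.0172 from limma, 0.00138 to 0.287 over its alternatives). The OE call was lost without parental replicate 1, parental replicate 2 or OE replicate 2, with -0.038, -0.034 and -0.028. It was also lost without a variance trend (adjusted p = 0.164 from limma) and with the neighbourhood median removed, which left -0.019 (adjusted p = 0.287 from limma).

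The TGATGNAA match was printed for ATF3 and CHAC1, the pair with the largest falls in KD on that list, to set beside that of SLC1A5. These are matches of letters, and binding or control by ATF4 was not tested. On the plus strand, ATF3 lies at chr1:212565206-212565233 and CHAC1 at chr15:40953252-40953279, where the match lies on the opposite strand and is printed as its reverse complement.
ATF3: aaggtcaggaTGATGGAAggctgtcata
CHAC1: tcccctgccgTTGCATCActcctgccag
They began 191 bases before the first of 2 annotated ATF3 starts and 209 bases before the CHAC1 start, whereas the window of the other ATF3 start and those of PSAT1, SESN2 and SLC43A2 held no TGATGNAA. Of the 7 transporters, which have 12 windows, 1 held TGATGNAA, 2 held CACGTG and 4 held ACGTG, including those within a CACGTG. No gene held a motif in more than 1 of its windows. The shares over all promoters, 3.14%, 6.34% and 18.5%, are per window and do not compare directly with a count per gene.

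All 7 MYC factors had values, of which 2 were called higher and 3 lower in KD (median 0.034), and 1 higher and 4 lower in OE (median -0.069), beside 26.9% of all genes in each direction in KD and 16.9% higher and 18.0% lower in OE. The count higher was 1 in KD without parental replicate 2 and 2 in OE without OE replicate 1. MYC had values of 8.83, 8.86 and 8.79 in parental, 8.38, 8.41 and 8.45 in KD, and 8.73, 8.69 and 8.64 in OE. It differed by -0.41 in KD (adjusted p = 7.61e-12 from limma) and by -0.14 in OE (adjusted p = 0.00221 from limma), in the order of the groups seen for SLC7A5. The neighbours of MYC had a median of -0.25 in KD, and with it removed the KD difference was -0.16 (adjusted p = 0.000197 from limma, the highest over its alternatives). OE was 0.28 above KD, and this call was lost when the values of neighbouring genes were subtracted, leaving 0.047 (adjusted p = 0.271 from limma, with 3.21e-08 to 0.271 over its alternatives).

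**Figure D5:**
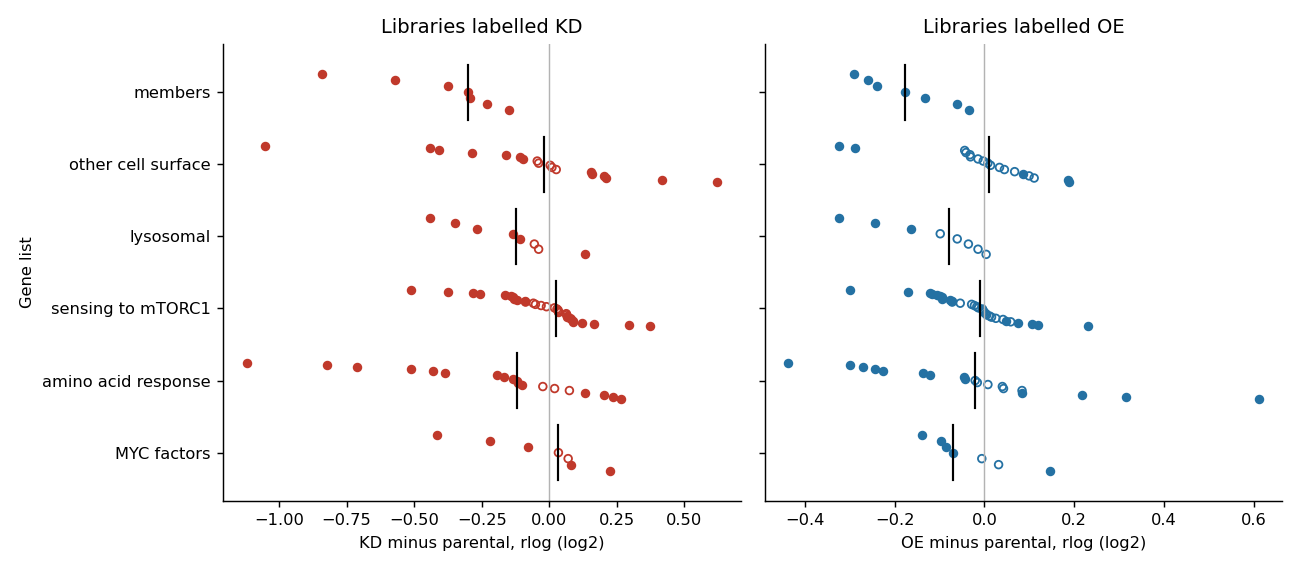
Difference of group mean rlog from parental (log2, horizontal axes, which differ in range) for every gene with values in 6 lists, in KD and in OE. Filled dots passed an adjusted p of 0.05, open dots did not, and the vertical line is the median of the list, which for the members is -0.30 in KD and -0.18 in OE.

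Marker genes of cell state moved between the groups as well. Of the 10 mesenchymal markers 6 were called higher and 3 lower in KD, and 6 higher and 3 lower in OE, beside 26.9% of all genes in each direction in KD and 16.9% higher and 18.0% lower in OE. All 10 average 8 or more, and of all such genes 36.4% were higher and 39.4% lower in KD, and 25.2% higher and 31.5% lower in OE. The genes higher in KD were not all those higher in OE, since FN1 differed by -0.96 in KD (adjusted p = 3.01e-33 from limma) and 0.55 in OE (adjusted p = 8.17e-26 from limma), and NOTCH2 by 0.29 (adjusted p = 4.03e-18 from limma) and -0.10 (adjusted p = 2.67e-07 from limma). Both were named after their values were seen. PRRX1, TWIST1, VIM and FOSL2 were called higher in both groups, and FOSL1 and CD44 lower in both. In KD and OE, PRRX1 differed by 1.29 and 0.69, TWIST1 by 0.43 and 0.28, and FOSL1 by -0.72 and -0.52. These genes were also named after their values were seen, and no alternatives were run for them. The summed level of the 10 markers, led by VIM, was 136700, 136900 and 137000 in parental, 144900, 145500 and 144200 in KD, and 146600, 146100 and 147600 in OE. Without VIM the sum was 82490, 82890 and 83210 in parental, 75610, 75580 and 74850 in KD, and 86290, 86950 and 86980 in OE, so that KD stood above parental only with VIM included. Markers of other cell types, also named after their values were seen, moved as well. Of the 4 endothelial markers 2 were called higher and 1 lower in KD, and 0 higher and 2 lower in OE, and of the 9 epithelial markers 1 higher and 0 lower in KD, and 1 higher and 2 lower in OE, beside the shares of all genes given above. The endothelial KDR differed by -1.32 in KD (adjusted p = 9.42e-21 from limma) and -0.84 in OE (adjusted p = 6.83e-15 from limma), in the order of the groups seen for SLC7A5, and PECAM1 by 0.47 (adjusted p = 7.76e-15 from limma) and -0.28 (adjusted p = 4.58e-09 from limma). The epithelial KRT8 differed by 0.39 (adjusted p = 7.07e-12 from limma) and 0.40 (adjusted p = 1.01e-11 from limma). KRT18, the most abundant epithelial marker, differed by -0.096 in OE (adjusted p = 5.09e-05 from limma) with no call in KD (0.037, adjusted p = 0.0817 from limma, 0.0172 to 0.375 over its alternatives), and CLDN4 by -0.57 in OE (adjusted p = 3.8e-16 from limma) with no call in KD (-0.057, adjusted p = 0.119 from limma, 0.0267 to 0.679 over its alternatives). Markers thus moved in different directions, and the part of cell state in the transporter differences was not tested.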

How the data were processed

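Per the labels and methods, total RNA of 9 libraries was prepared with a kit that does not mark strand. Reads were trimmed by the authors (cutadapt), aligned to GRCh38 (HISAT2) and counted per gene (featureCounts of Subread). Genes with few reads were removed, and the authors deposited log2 values from the rlog of DESeq2; versions and annotation were not given in the sources used here. Reads per library cannot be read from these values, and the methods give only a nominal depth. A further 3 columns were empty and were not used. Symbols and exons came from GENCODE release 44 (22195 of 22290 identifiers matched) and promoters from RefSeq. Group differences were fitted with limma 3.58.1 (R 4.3.3) on all 9 libraries, with a variance trend and Benjamini-Hochberg adjustment over 22290 genes, called under 0.05, and checked on simulated data. From each list, at most 4 called genes per comparison with the largest difference and a mean rlog of at least 5 could be named. The members and lists were chosen with earlier results of these data known. Alternatives were the replicate block, no trend, a low-value filter, a fit of the compared groups alone, other scaling, removal of the neighbourhood median, a limit of 0.5 and each library left out. Counts and sums over the adrenergic marker list are not reported here.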

Additional observations from a re-analysis of the deposited data

How the results depend on the processing

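Leaving aside the limit of 0.5, the 7 transporters kept their direction and call in KD against parental in 112 of 112 values over 16 alternatives. In OE against parental 101 of 112 did. SLC38A2 lost its call in 9 and turned to 0.018 under quantile normalization, and SLC38A1 lost its call in 1. In OE against KD 110 of 112 did, and without single libraries SLC7A6 ranged from -0.0013 to 0.098. The OE difference of TRAP1 ranged from -0.012 to 0.042 without single libraries and was -3.9e-05 with library medians made equal. The cause was not tested. Requiring a difference over 0.5 as well, by construction, ended 5 of 7 transporter calls in KD, 7 of 7 in OE and 5 of 6 between OE and KD. It left 1110 genes called in KD, 200 in OE and 793 between OE and KD, against 11980, 7764 and 10552 without it. Replicate numbers paired the libraries weakly at most (r across genes -0.0711 to 0.14 between same-numbered libraries, over 0.1 in 2 of 9 pairs). Both of these pairs joined KD and OE. There same-numbered libraries gave 0.116, 0.0231 and 0.14, and differently numbered ones -0.139 to 0.026. With the replicate block 12015, 7854 and 10623 genes were called. SLC7A5 minus SLC3A2 was -0.28 in KD and -0.052 in OE under quantile normalization. Apart from that limit, named genes of the other lists and markers that had alternatives lost calls in 1 of 432 values in KD. They lost 5 of 416 in OE and 5 of 320 between OE and KD. Calls were gained in KD in 4 values, by CLDN4 without KD replicate 3 (-0.087) and by KRT18 with the low-value filter, under quantile normalization (0.050) and without KD replicate 1 (0.050). Direction was kept except for the uncalled KD difference of KRT18, which was -0.019 with the neighbourhood median removed, and the uncalled OE difference of SLC7A11, which was -0.0041 with library medians equal, -0.026 with the neighbourhood median removed and -0.019 to 0.040 without single libraries. The alternatives for these named genes, markers and list counts were added after seeing the data, and those for the transporters, TRAP1 and the gene counts were planned. Reads per library cannot be read from rlog values, so counting error cannot be given, and shrinkage is stronger for genes with few reads.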
